A study of Mus musculus with 12 samples.

Results

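The RNA sensors and interferon signalling factors described here are 8 genes, taken by symbol from a table of 19680: the cytosolic sensors Ddx58 (RIG-I), Ifih1 (MDA5) and Dhx58 (LGP2), the signal transducer Stat2, and the interferon regulatory factors Irf1, Irf3, Irf7 and Irf9. Their reads were counted in RNA from CJ9, a line of mouse embryonic stem cells, after 5 days of direction to endoderm or mesoderm. The 12 libraries formed 4 groups of 3, namely arid4b∆ cells directed to endoderm, wild type cells directed to endoderm, arid4b∆ cells directed to mesoderm and wild type cells directed to mesoderm. The ARID4B protein belongs to a SIN3 corepressor complex with histone deacetylases, and the study concerns its role when stem cells commit to a lineage. The labels give no other agent or allele, and they do not say how Arid4b was deleted or whether the arid4b∆ cells come from a single clone, so the deletion and a property of a clone cannot be told apart.

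RIG-I and MDA5 are helicases that bind double-stranded RNA in the cytosol and signal through the adaptor MAVS to the kinase TBK1, which activates IRF3 and IRF7 for transcription of type I interferon. LGP2 is a related helicase without signalling domains that modulates the other sensors. Secreted interferon binds the receptor IFNAR1-IFNAR2, whose kinases JAK1 and TYK2 phosphorylate STAT factors. STAT2 and IRF9 are subunits of the resulting complex ISGF3, which binds interferon-stimulated response elements in target promoters, Ddx58, Ifih1, Irf7, Stat2 and Irf9 among the known targets. Pluripotent stem cells are known for a weak response to interferon.

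In both lineages Ddx58, Stat2 and Irf9 were higher in arid4b∆ than in wild type cells, and in endoderm Ifih1 was higher too. Irf7 was also called higher in endoderm, but narrowly, and that call held in 11 of 19 alternative analyses. Ddx58 was 13.0-fold higher in arid4b∆ endoderm and 3.14-fold higher in arid4b∆ mesoderm. Irf3 was not called in either lineage, and Dhx58 had too few reads to test. Irf1 was 1.75-fold lower in arid4b∆ mesoderm, where the groups overlapped, and that call held in 16 of 19 alternative analyses. In wild type cells Ddx58, Ifih1 and Irf1 were lower in endoderm than in mesoderm. Between the arid4b∆ lineages none of the 7 tested genes was called, where 1.85% of all genes were called. A direct test of whether the lineage difference changed with genotype called Ddx58 only. For Ifih1 and Irf1 that test missed the threshold (edgeR adjusted p = 0.0506 and 0.288).

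Total counts lay between 10351074 and 35660108 per library, of which the ribosomal RNA precursor Rn45s took 79.7% to 82.4%. The remaining 1949299 to 6678893 counts set the precision. Levels are given as CPM, counts per 1000000 of a library's scaled size, and 3 counts correspond to 0.449 to 1.54 CPM of the unscaled size. Differences were tested with edgeR's quasi-likelihood test, and p-values were adjusted by Benjamini-Hochberg over 11635 genes, and a gene is said to have risen, fallen or been called where adjusted p was under 0.05. Fold changes are arid4b∆ over wild type unless stated. The labels do not state whether replicate libraries are separate cultures. The p-values therefore reflect library-to-library spread, possibly only technical. Arid4b itself averaged 46.3 ± 4.29 CPM in arid4b∆ and 41.1 ± 3.98 in wild type endoderm, and 44.7 ± 2.99 in arid4b∆ and 42.1 ± 4.78 in wild type mesoderm (SD, n = 3). Whole-gene counts therefore do not check the deletion, and every direction below rests on the labels. In bulk RNA, fewer cells of a type and less RNA per cell cannot be told apart.

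The promoter sequences are shown first, because the genes that rose are known interferon targets and the response element can be read in some of them. RefSeq promoters of build GRCm38.p6 (250 bases before to 50 after the start of the gene) were found for 7 of the 8 genes, 9 promoters in all, and Dhx58 had no entry. The response element core (GAAA, any 2 bases, GAAA), on either strand, was present in the promoters of Ddx58, Ifih1 and Stat2, and in 3.44% of all 32851 promoters of 300 bases. The STAT dimer site TTCNNNGAA, which reads the same on both strands, was present in the first promoter of Irf1 and in 8.30% of all promoters. A related repeat with a single base between its copies, GAAANGAAA, was added after the sequences had been read. It was present in Ddx58 and, overlapping the response element, in Stat2, and in 3.17% of all promoters. Capitals mark the match, and each stretch is written in the direction of its gene.
Ddx58 repeat with 1 base between, 60 to 52 bases before the start (chr4:40239851-40239910, minus strand): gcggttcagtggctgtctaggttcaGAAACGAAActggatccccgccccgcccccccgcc
Ddx58 response element core, bases 3 to 12 after the start (chr4:40239804-40239833, minus strand): cctgaggcagTTTCGATTTCctatggccag
Ifih1 response element core, bases 33 to 42 after the start (chr2:62646206-62646235, minus strand): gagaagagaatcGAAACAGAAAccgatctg
Stat2 response element core, 222 to 213 bases before the start (chr10:128270251-128270310, plus strand): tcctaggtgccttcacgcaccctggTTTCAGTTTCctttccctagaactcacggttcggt
Irf1 STAT dimer site, 90 to 82 bases before the start (chr11:53769899-53769958, plus strand): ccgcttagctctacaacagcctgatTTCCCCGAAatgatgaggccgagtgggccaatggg
The promoters of Irf3, Irf7 and Irf9 in this table held none of these motifs, which says only that these letters are absent from these windows. A match is a description of the letters, not of binding.

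Ddx58 (chromosome 4, 40203777 to 40239825) encodes the sensor RIG-I, which binds short double-stranded RNA with a triphosphate end. In endoderm it stood at 22.7, 30.7 and 25.8 CPM in the 3 arid4b∆ libraries, against 2.63, 2.24 and 1.13 CPM in the wild type libraries. In mesoderm it stood at 26.6, 27.2 and 26.2 CPM in arid4b∆, against 6.25, 6.20 and 11.1 CPM in wild type. All 6 arid4b∆ libraries lay above all 6 wild type libraries, and the arid4b∆ levels of the lineages overlapped. The log2 fold change was 3.70 ± 0.25 (SE) in endoderm (edgeR adjusted p = 1.45e-09) and 1.65 ± 0.20 in mesoderm (adjusted p = 5.68e-06). The difference between these effects, the interaction, was 2.05 ± 0.36 (adjusted p = 0.00265). Ddx58 was thus the single tested member whose genotype effect passed the test of a difference between lineages, a test that called 1.4% of all genes and called 0.627% higher. The interaction and the comparisons of genotype and lineage share libraries, so these values are not independent of each other.

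Ifih1 (chromosome 2, 62595618 to 62646255) encodes MDA5, a sensor of long double-stranded RNA. Its level was 5.54, 2.89 and 3.25 CPM in arid4b∆ endoderm, against 0.292, 0.344 and 0 CPM in wild type endoderm, or 52 against 3 counts. The groups did not overlap, and the ratio of counts was 15.5 with a 95% exact binomial counting interval of 5.03 to 77.8 (edgeR adjusted p = 0.000739). In mesoderm it was 6.45, 5.55 and 5.08 CPM in arid4b∆, against 1.25, 6.20 and 5.74 CPM in wild type. These groups overlapped, because only wild type mesoderm library 1 was low, and the log2 fold change of 0.41 ± 0.40 (SE) was not called (edgeR adjusted p = 0.535). The difference between the effects was 3.41 ± 0.86 and missed the threshold (adjusted p = 0.0506). It passed without wild type mesoderm library 1 (adjusted p = 0.00145) and without the filter on low counts (0.000425), and its adjusted p ranged from 0.000425 to 0.23 across alternatives. Without wild type endoderm library 2, which held 2 of the 3 wild type counts, the fitted log2 fold change in endoderm was 4.42 in place of 3.83.

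Dhx58 (chromosome 11, 100694884 to 100704271) encodes LGP2. It held 12 counts in arid4b∆ and 16 in wild type endoderm, a ratio of 0.672 (95% counting interval 0.29 to 1.51), and 13 counts in arid4b∆ and 5 in wild type mesoderm, a ratio of 2.92 (0.978 to 10.5). Per library it stood between 0.609 and 1.46 CPM in arid4b∆ and between 1.13 and 1.38 CPM in wild type endoderm, and between 0.617 and 1.61 CPM in arid4b∆ and 0.169 and 0.751 CPM in wild type mesoderm. It did not pass the filter on low counts, no library had more than 8 counts, and a difference was not detectable at this depth. The intervals cover counting error only, since they pool the counts of a group and leave out the spread between its libraries. Reads carried no molecular identifiers, so copies of a molecule could be counted more than once.

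**Figure D1:**
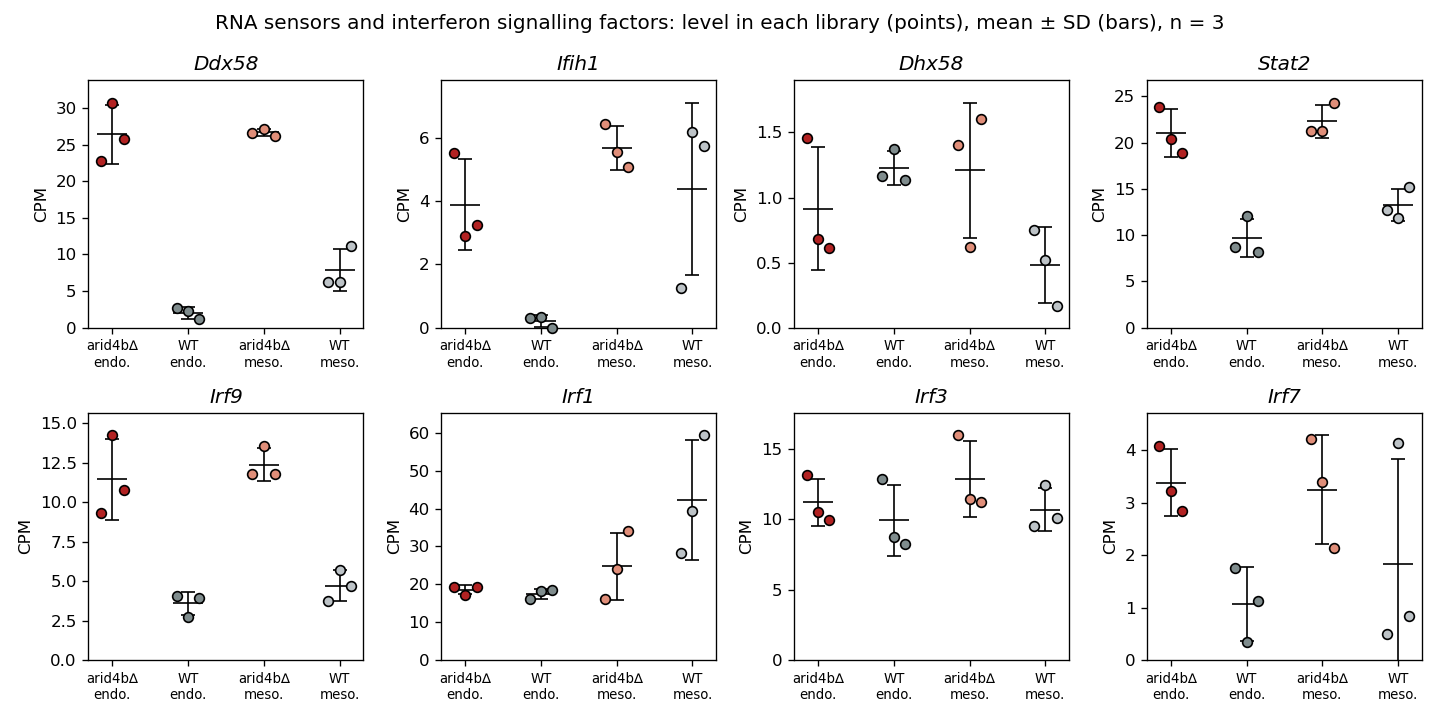
Level in CPM (linear axes from 0) of the 8 genes in each of the 12 libraries, with group mean and SD (n = 3, bars end at 0) for arid4b∆ endoderm, wild type endoderm, arid4b∆ mesoderm and wild type mesoderm. All 6 arid4b∆ libraries of Ddx58 sit at 22.7 CPM or more, and all 6 wild type libraries at 11.1 CPM or less. Irf3 overlaps in both lineages, and Irf1 has its highest value, 59.4 CPM, in a wild type mesoderm library.

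Stat2 and Irf9 encode the subunits that set ISGF3 apart from other STAT complexes. Stat2 (chromosome 10, 128270498 to 128292853) stood at 23.9, 20.4 and 18.9 CPM in arid4b∆ endoderm, against 8.76, 12.04 and 8.22 CPM in wild type endoderm. In mesoderm it stood at 21.3, 21.3 and 24.3 CPM in arid4b∆, against 12.8, 11.9 and 15.2 CPM in wild type. In both lineages the 3 arid4b∆ libraries lay above the wild type range. The log2 fold change was 1.07 ± 0.17 (SE, edgeR adjusted p = 0.000145) in endoderm and 0.71 ± 0.17 (adjusted p = 0.00444) in mesoderm.

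Irf9 (chromosome 14, 55603985 to 55610030), the DNA-binding subunit of ISGF3, stood at 9.33, 14.3 and 10.8 CPM in arid4b∆ endoderm, against 4.09, 2.75 and 3.97 CPM in wild type endoderm. In mesoderm it stood at 11.8, 13.6 and 11.8 CPM in arid4b∆, against 3.75, 5.68 and 4.73 CPM in wild type. The groups did not overlap in either lineage. Irf9 was 3.33-fold higher in arid4b∆ endoderm (log2 1.74 ± 0.24 SE, edgeR adjusted p = 3.04e-05) and 2.69-fold higher in arid4b∆ mesoderm (1.43 ± 0.24, adjusted p = 0.000233). The effect in endoderm minus that in mesoderm was 0.31 ± 0.35 for Irf9 (adjusted p = 0.846) and 0.35 ± 0.24 for Stat2 (adjusted p = 0.678), neither of which passed the test.

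Irf7 (chromosome 7, 141263183 to 141266499) encodes the factor that amplifies interferon transcription once interferon has been made. It stood at 4.08, 3.23 and 2.84 CPM in arid4b∆ endoderm, against 1.75, 0.344 and 1.13 CPM in wild type endoderm, and the groups did not overlap. The counts were 47 in arid4b∆ and 12 in wild type endoderm, a ratio of 3.51 (95% counting interval 1.83 to 7.27), and the difference passed narrowly (edgeR adjusted p = 0.0453). The call ended with DESeq2 (adjusted p = 0.0848) and without wild type endoderm library 2 (0.28) or 3 (0.0956), arid4b∆ endoderm library 1 (0.1), 2 (0.103) or 3 (0.0721), or arid4b∆ mesoderm library 1 (0.0506) or 2 (0.0601). Over its alternatives adjusted p lay between 0.00603 and 0.28. In mesoderm Irf7 stood at 4.21, 3.39 and 2.14 CPM in arid4b∆, against 0.5, 4.13 and 0.844 CPM in wild type, with wild type library 2 among the high values. It was not called there (log2 1.26 ± 0.57 SE, edgeR adjusted p = 0.135), and it was called without that library (adjusted p = 0.0169).

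Irf3 (chromosome 7, 44997648 to 45002848), the factor that is present before infection and activated by phosphorylation, overlapped between genotypes in both lineages. It stood at 13.1, 10.5 and 9.94 CPM in arid4b∆ endoderm, against 12.8, 8.77 and 8.22 CPM in wild type endoderm. In mesoderm it stood at 16.0, 11.4 and 11.2 CPM in arid4b∆, against 9.51, 12.4 and 10.1 CPM in wild type. The log2 fold change was 0.17 ± 0.21 (SE, edgeR adjusted p = 0.677) in endoderm and 0.31 ± 0.21 (adjusted p = 0.349) in mesoderm. RNA level does not report on the activation of IRF3.

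Irf1 (chromosome 11, 53770014 to 53778374), an activator induced by interferon gamma, went against the other called members. In endoderm it stood at 19.2, 17.2 and 19.3 CPM in arid4b∆, against 16.1, 18.2 and 18.4 CPM in wild type, and it was not called (edgeR adjusted p = 0.914). In mesoderm it stood at 16.3, 24.1 and 33.98 CPM in arid4b∆, against 28.3, 39.3 and 59.4 CPM in wild type, groups that overlapped. It fell in arid4b∆ mesoderm by 0.81 on the log2 scale, with an SE of 0.22 (edgeR adjusted p = 0.0139). The call ended without wild type mesoderm library 3 (adjusted p = 0.265) and without arid4b∆ mesoderm library 1 (0.0938) or 2 (0.0521), and over its alternatives adjusted p lay between 1.08e-06 and 0.265. The difference between the effects was 0.87 ± 0.34 and was not called (adjusted p = 0.288). It was called without wild type mesoderm library 1 (adjusted p = 0.0272) and without the filter on low counts (0.00584), with a range over alternatives of 0.00584 to 0.718.

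**Figure D2:**
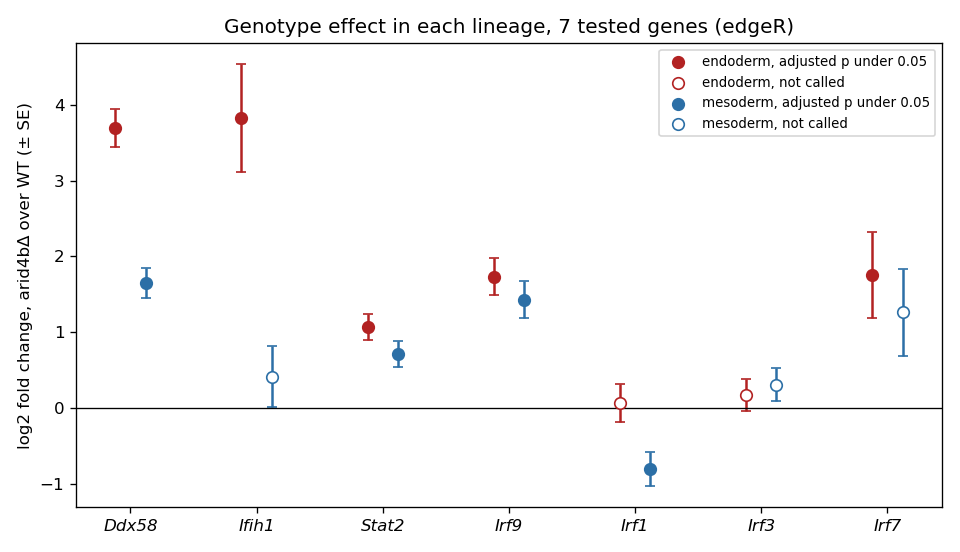
Log2 fold change of arid4b∆ over wild type with its SE for the 7 tested genes in endoderm and in mesoderm (3 libraries a group); filled points passed edgeR's test at an adjusted p under 0.05. Ddx58 is at 3.70 in endoderm and 1.65 in mesoderm, Irf9 at 1.74 and 1.43, and Irf1 at 0.07 and −0.81.

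Of the 7 tested members, 5 rose and none fell in arid4b∆ endoderm, where 12.7% of all 11635 genes were called, 5.78% higher and 6.92% lower. None was lower there at an unadjusted p under 0.05 or with DESeq2. In arid4b∆ mesoderm 3 rose and 1 fell, where 19.1% of all genes were called, 8.97% higher and 10.1% lower. The median log2 fold change of the tested members was 1.74 in endoderm and 0.71 in mesoderm, against −0.00 and 0.01 over all genes. These counts describe the list and do not support it. Irf7 reached the filter's level of 2.38 CPM in all 3 libraries of arid4b∆ endoderm only, with 2 of arid4b∆ mesoderm, 1 of wild type mesoderm and none of wild type endoderm. Ifih1 reached it in all 6 arid4b∆ libraries, 2 of wild type mesoderm and none of wild type endoderm. Ddx58 reached it in 1 wild type endoderm library and all 9 others, and Stat2, Irf1, Irf3 and Irf9 reached it in all 12.

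Between lineages, wild type cells had lower levels of 3 members in endoderm than in mesoderm, where 9.84% of all genes were called, 4.41% higher and 5.43% lower. Ddx58 averaged 2.00 ± 0.77 CPM in wild type endoderm and 7.86 ± 2.84 CPM in wild type mesoderm (SD, n = 3; log2 −2.04 ± 0.31 SE, edgeR adjusted p = 9.61e-05). Ifih1 held 3 counts in wild type endoderm and 51 in wild type mesoderm, a ratio of 0.0546 (95% counting interval 0.0109 to 0.169; edgeR adjusted p = 0.000431), and its fitted log2 value moved to −4.61 from −4.02 when wild type endoderm library 2 was left out. Irf1 averaged 17.6 ± 1.32 CPM in wild type endoderm and 42.3 ± 15.8 CPM in wild type mesoderm (log2 −1.30 ± 0.23, edgeR adjusted p = 0.00046). For these 3 genes no wild type endoderm library reached the mesoderm range. Stat2, Irf3, Irf7 and Irf9 were not called, with adjusted p between 0.14 and 0.887. In arid4b∆ cells edgeR called none of the 7 members at an adjusted p under 0.05 and none at an unadjusted p under 0.05. DESeq2 called none. Over all genes 1.85% were called, 0.945% higher and 0.902% lower. Ifih1 and Irf1 leaned the way they did in wild type cells, with log2 −0.61 ± 0.40 (SE) and −0.43 ± 0.24. Ddx58 averaged 26.4 ± 4.04 CPM in arid4b∆ endoderm and 26.7 ± 0.468 CPM in arid4b∆ mesoderm, with a log2 difference of 0.00 ± 0.17 (edgeR adjusted p = 1.0).

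For the order of the 4 groups, Ddx58, Stat2 and Irf9 had their highest means in the arid4b∆ groups, which overlapped each other, followed by wild type mesoderm and wild type endoderm. The wild type groups were apart for Ddx58 and overlapped for Stat2 and Irf9. For Ifih1 the order was arid4b∆ mesoderm, wild type mesoderm, arid4b∆ endoderm and wild type endoderm, in which neighbours overlapped except that arid4b∆ endoderm lay wholly above wild type endoderm. For Irf1 it was wild type mesoderm, arid4b∆ mesoderm, arid4b∆ endoderm and wild type endoderm, again with overlap between neighbours.

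Levels of different genes were compared per kilobase of merged exons (GENCODE M21, build GRCm38), since a longer transcript collects more reads. In arid4b∆ endoderm the levels were 4.67 CPM per kilobase for Irf1, 3.75 for Ddx58, 3.55 for Stat2, 3.25 for Irf3, 2.13 for Irf9, 0.896 for Irf7, 0.476 for Ifih1 and 0.28 for Dhx58. In wild type endoderm they were 4.42 CPM per kilobase for Irf1, 2.89 for Irf3, 1.63 for Stat2, 0.669 for Irf9, 0.375 for Dhx58, 0.285 for Irf7, 0.283 for Ddx58 and 0.026 for Ifih1. RIG-I transcripts thus stood beside those of Stat2 and Irf3 in arid4b∆ cells and beside those of Irf7 and Dhx58 in wild type endoderm. The lengths are approximate, because no source used here names the annotation behind the deposited counts. Exons of 5 members overlap another gene, over 4.31% of exon bases for Dhx58 (Dhx58os), 3.40% for Irf1 (Gm17334), 2.56% for Irf3 (Bcl2l12), 2.28% for Irf9 (Rnf31) and 1.19% for Irf7 (Phrf1). Reads there cannot be assigned with certainty. Rnf31 lies on the same strand as Irf9, so the strand does not separate their reads. Dhx58os, Gm17334, Bcl2l12 and Phrf1 lie on the opposite strand, and no source used here says whether counting used the strand.

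The rest of the pathway was read from lists. The counts of these lists, and of the marker lists below, stand beside 12.7% of all genes called in endoderm and 19.1% in mesoderm. In endoderm 5.78% were called higher and 6.92% lower, and in mesoderm 8.97% and 10.1%. Counts of the receptor, JAK and STAT and NF-kB lists lay near these shares. So did those of the enzymes that limit sensing and the other IRF genes in endoderm, and of the adaptors and kinases in mesoderm. The lists are short, and no count of genes called is a result about a list. Where no gene of a list is said below to have risen or fallen, DESeq2 called none either. At an unadjusted p under 0.05 edgeR then counted none, except in endoderm 1 sensor that was lower and, among the other IRF genes, 1 that was higher and 1 that was lower. Of the 8 tested JAK kinases and other STAT factors reported here, none rose and 1, Jak2, the kinase of many cytokine receptors, fell in both lineages. Jak2 averaged 5.10 ± 0.436 CPM in arid4b∆ and 10.7 ± 1.02 in wild type endoderm (SD, n = 3; edgeR adjusted p = 0.0025), and 6.22 ± 1.96 in arid4b∆ and 15.4 ± 2.04 in wild type mesoderm (adjusted p = 0.000233). The kinases of the type I receptor were not called: Jak1 had log2 −0.23 ± 0.13 in endoderm and −0.12 ± 0.13 in mesoderm, and Tyk2 −0.04 ± 0.26 and −0.12 ± 0.27 (adjusted p between 0.282 and 0.947). The median of these 8 was −0.24 in endoderm and −0.14 in mesoderm.

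The interferon genes that could be read were near the limit of detection, and the level of the other listed ligands is not known here. Of the 10 ligands listed, 3 could be read, and they held 7 counts in arid4b∆ and 2 in wild type endoderm, and 3 in arid4b∆ and 6 in wild type mesoderm. None was tested, and Ifnb1 was not analysed here. Of 5 tested receptor genes none rose and 1, Ifnar1, fell in both lineages. Ifnar1, a chain of the type I receptor, averaged 21.6 ± 2.96 CPM in arid4b∆ and 30.1 ± 3.33 in wild type endoderm (edgeR adjusted p = 0.0382), and 21.0 ± 3.14 in arid4b∆ and 31.2 ± 4.85 in wild type mesoderm (adjusted p = 0.0103). The endoderm call ended with DESeq2 (adjusted p = 0.115) and without wild type endoderm library 2 (0.231) or 3 (0.0758), arid4b∆ endoderm library 1 (0.12) or 3 (0.119), wild type mesoderm library 2 (0.0518) or arid4b∆ mesoderm library 2 (0.0529), with a range over alternatives of 0.0159 to 0.231. In mesoderm leaving out wild type library 3 (adjusted p = 0.111) or arid4b∆ library 3 (0.0708) ended the call, with a range of 0.00225 to 0.111. Ifnar2, the other chain, was not called (log2 0.22 ± 0.37 in endoderm, −0.25 ± 0.38 in mesoderm). The list's median was −0.47 in endoderm and −0.25 in mesoderm.

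Among 7 other tested nucleic acid sensors, 3 rose and none fell in each lineage, namely Eif2ak2, Ddx60 and Ifi204. Eif2ak2 (PKR, a kinase that halts translation on binding double-stranded RNA) averaged 34.9 ± 1.13 CPM in arid4b∆ and 7.64 ± 2.47 in wild type endoderm (edgeR adjusted p = 6.53e-08), and 29.7 ± 3.13 in arid4b∆ and 14.3 ± 4.73 in wild type mesoderm (adjusted p = 0.00091). Its effect in endoderm minus that in mesoderm was 1.25 ± 0.28 on the log2 scale (adjusted p = 0.0246). That call ended without wild type endoderm library 1 (0.0791) or 2 (0.155), arid4b∆ endoderm library 2 (0.0502), wild type mesoderm library 3 (0.207) or arid4b∆ mesoderm library 2 (0.0773) or 3 (0.0537), with a range of 9.52e-05 to 0.207. Ddx60, an interferon-induced helicase, held 111 counts in arid4b∆ and 4 in wild type endoderm, 24.9 times as many after scaling (95% counting interval 9.44 to 92.9; edgeR adjusted p = 5.15e-06). In mesoderm its log2 fold change was 2.19 ± 0.37 (adjusted p = 0.000204), and 3.72 without wild type library 3, which held most of the wild type counts. Ifi204, of a DNA sensor family with close paralogs that could share reads, held 29 counts in arid4b∆ and none in wild type endoderm, at least 8.66-fold higher with 3 counts over the wild type group (adjusted p = 0.00149). It held 39 counts in arid4b∆ and 1 in wild type mesoderm (ratio 43.9, interval 7.42 to 1776; adjusted p = 0.000378). The 1 wild type count lay in library 1, and the fitted log2 value was 5.02, 6.94 without that library and 4.23 without wild type library 3. The endosomal sensor Tlr3 was below the filter, with 14 counts in arid4b∆ and 4 in wild type endoderm, and 24 in arid4b∆ and 18 in wild type mesoderm. The list's median was 0.59 in endoderm, also with Ifi204 at its bound, and 0.97 in mesoderm.

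Of 10 tested sensor adaptors and kinases, Trim25 and Zcchc3 rose and Traf6 fell in endoderm, and Trim25 alone rose in mesoderm. Trim25, the ubiquitin ligase that acts on RIG-I, averaged 86.7 ± 6.95 CPM in arid4b∆ and 31.6 ± 1.43 in wild type endoderm (edgeR adjusted p = 3.26e-09), and 82.9 ± 7.22 in arid4b∆ and 39.5 ± 4.53 in wild type mesoderm (adjusted p = 6.22e-07). Mavs had log2 −0.30 ± 0.26 in endoderm and −0.07 ± 0.27 in mesoderm, and Tbk1 0.21 ± 0.14 and −0.11 ± 0.14, and neither gene was called (adjusted p between 0.377 and 0.902). Zcchc3, an RNA-binding co-sensor, had log2 0.43 ± 0.14 in endoderm (adjusted p = 0.0452). That call ended with DESeq2 (0.0966) and without wild type endoderm library 1 (0.174) or 3 (0.12), arid4b∆ endoderm library 2 (0.236) or 3 (0.0636) or arid4b∆ mesoderm library 2 (0.0516), with a range of 0.00387 to 0.236. Traf6, a ubiquitin ligase of innate signalling, had log2 −0.53 ± 0.15 in endoderm (adjusted p = 0.0188). That call ended with DESeq2 (0.0786) and without wild type endoderm library 1 (0.0695) or 3 (0.0858) or arid4b∆ endoderm library 2 (0.0706) or 3 (0.0571), with a range of 0.0107 to 0.0858. The list's median was 0.06 in endoderm and −0.09 in mesoderm.

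**Figure D3:**
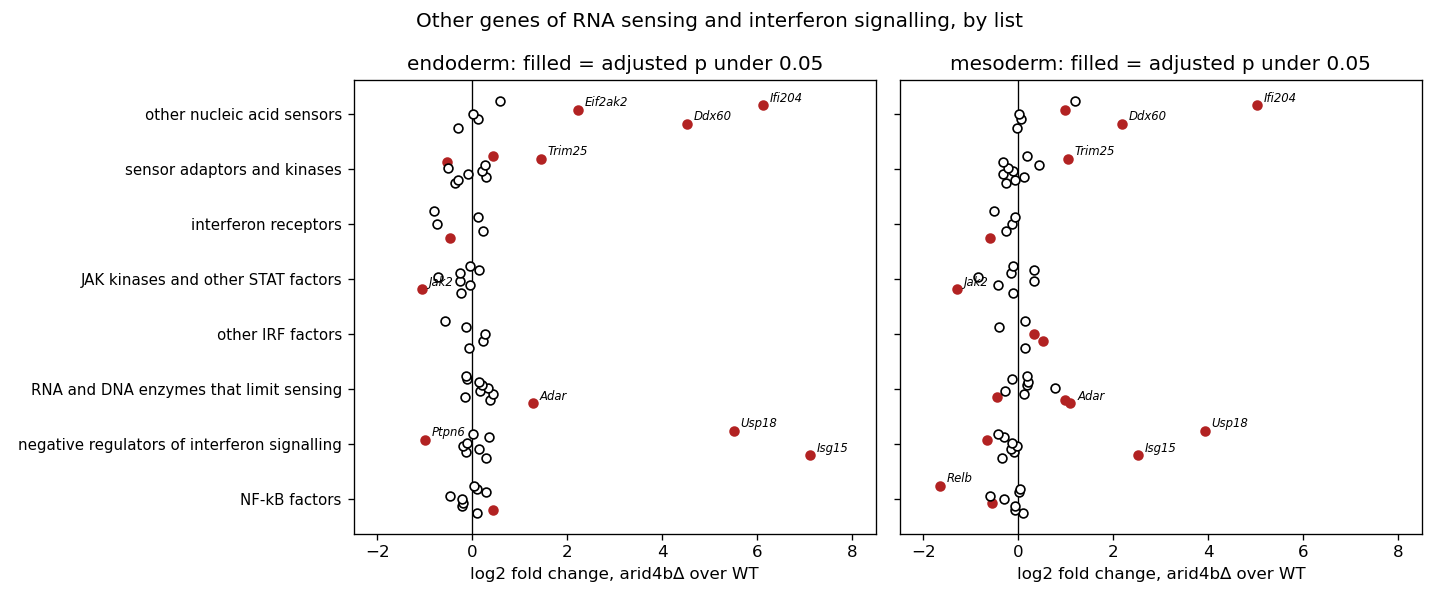
Log2 fold change of arid4b∆ over wild type for the tested genes of 8 other lists of the pathway, in endoderm (left) and mesoderm (right); each point is a gene, and filled points passed edgeR's test at an adjusted p under 0.05. Called genes beyond a log2 change of 1 in size are named. The named genes to the right of 0 are Eif2ak2 (endoderm only), Ddx60, Ifi204, Trim25, Adar, Usp18 and Isg15 to the right. Isg15 and Ifi204 had no counts in wild type endoderm, so their fitted positions there depend on the prior count.

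Inhibitors and feedback genes of the pathway were read next. Of 10 tested negative regulators of interferon signalling, Usp18 and Isg15 rose and Ptpn6 fell in both lineages. Usp18, which removes ISG15 from proteins and blocks the receptor chain IFNAR2, held 269 counts in arid4b∆ and 5 in wild type endoderm (ratio 48.2, 95% counting interval 20.4 to 150; edgeR adjusted p = 1.18e-08), and 125 in arid4b∆ and 9 in wild type mesoderm (ratio 15.6, interval 7.97 to 35.0; adjusted p = 2.03e-06). In mesoderm its fitted log2 value was 3.93, and 5.89 without wild type library 3. Isg15, a ubiquitin-like modifier, held 57 counts in arid4b∆ and none in wild type endoderm, at least 17.0-fold higher with 3 counts over the wild type group (adjusted p = 0.000217), and 67 in arid4b∆ and 13 in wild type mesoderm (ratio 5.80, interval 3.17 to 11.4; adjusted p = 0.00285). Its fitted log2 value in mesoderm was 2.51, 1.92 without wild type library 1 and 3.54 without library 3. Ptpn6, a phosphatase of cytokine signalling, averaged 4.15 ± 0.285 CPM in arid4b∆ and 8.18 ± 2.05 in wild type endoderm (adjusted p = 0.00614, and 0.0707 without wild type library 2). In mesoderm it had log2 −0.66 ± 0.22 (adjusted p = 0.0399), a call that ended with DESeq2 (0.169), without the filter (0.0608), in a fit of only the mesoderm groups (0.0552) and without wild type mesoderm library 2 (0.0502) or 3 (0.202) or arid4b∆ mesoderm library 1 (0.13), 2 (0.0706) or 3 (0.079). The lowest adjusted p over its alternatives was 0.0288. The list's median was 0.08 in endoderm, also with Isg15 at its bound, and −0.14 in mesoderm.

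Of 10 tested enzymes that limit RNA or DNA sensing, Adar alone rose in endoderm, where 12.7% of all genes were called. Adar and Adarb1 rose and Pnpt1 fell in mesoderm, where 19.1% were called. Adar, the editing enzyme that marks cellular double-stranded RNA as self, averaged 68.4 ± 7.74 CPM in arid4b∆ and 28.2 ± 2.21 in wild type endoderm (edgeR adjusted p = 5.5e-07), and 65.4 ± 4.34 in arid4b∆ and 29.6 ± 7.19 in wild type mesoderm (adjusted p = 8.2e-06). Adarb1, a related editing enzyme, had log2 0.98 ± 0.31 in mesoderm (adjusted p = 0.0297). That call ended without wild type mesoderm library 2 (0.0871) or 3 (0.177) or arid4b∆ mesoderm library 1 (0.0602), 2 (0.0566) or 3 (0.0903), with a range of 0.00224 to 0.177. Pnpt1, a mitochondrial exonuclease, had log2 −0.45 ± 0.12 (adjusted p = 0.00912, and 0.123 without wild type mesoderm library 3). The list's median was 0.19 in both lineages.

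The other IRF factors and the NF-kB factors make up the last lists. Of 5 tested other IRF genes none was called in endoderm by edgeR. In mesoderm Irf2bp2 and Irf2bpl, binding partners of IRF2, rose by log2 0.52 ± 0.14 (edgeR adjusted p = 0.014) and 0.33 ± 0.12 (adjusted p = 0.0483). The Irf2bp2 call ended without wild type mesoderm library 3 (0.121) or arid4b∆ mesoderm library 2 (0.0519), with a range of 0.00316 to 0.121. The Irf2bpl call held in 5 of 19 alternatives, with a range of 0.0183 to 0.198, and of the libraries left out in turn it held only without arid4b∆ endoderm library 1 or wild type mesoderm library 1. Of 9 tested NF-kB genes, Ikbkb, an activating kinase, rose in endoderm (log2 0.45 ± 0.14, adjusted p = 0.0446), a call that ended with DESeq2 (0.188), without the filter (0.0733) and without any single endoderm library of either genotype (0.0566 to 0.18), with a lowest adjusted p of 0.0304. In mesoderm Relb and Nfkb1, subunits of the factor, fell, with log2 −1.65 ± 0.40 (adjusted p = 0.00539) and −0.55 ± 0.15 (adjusted p = 0.0138). The Nfkb1 call ended with DESeq2 (0.0564) and without wild type mesoderm library 3 (0.0789) or arid4b∆ mesoderm library 2 (0.0561). The medians were −0.06 in endoderm and 0.13 in mesoderm for the IRF list, and 0.04 and −0.08 for the NF-kB list.

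Across the 12 libraries, the genes most like each member were found by Pearson's r of log2 CPM, which mostly follows the 4 groups and is given as a description. The nearest genes to Ddx58 were Igtp (r = 0.965), Ifitm3 (0.963) and Ddx60 (0.960). Those nearest to Stat2 were Ddx60 (0.963), Fam193b (0.960) and Parp9 (0.957), and Helz2 (0.967) was nearest to Irf9. Irgm1 (0.942), Nrk (0.925) and Trerf1 (0.922) were nearest to Ifih1, and Myo1e (0.926), Psmd11 (0.899) and Banp (0.883) to Irf7. Irf1 was most like Agrn (0.967), Tapbp (0.953) and Fam21 (0.935), and Irf3 most like Ccdc112 (0.873), Pex10 (0.859) and Terc (0.850). Among the members, r was 0.951 between Ddx58 and Stat2 and 0.913 between Ddx58 and Irf9, against 0.0768 between Ddx58 and Irf1.

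Markers of other cells differed between the groups as well. The summed level of 7 endothelial and blood progenitor markers was lower in arid4b∆. It was 3.40 to 6.12 CPM in arid4b∆ and 15.2 to 16.7 CPM in wild type endoderm. In mesoderm it was 6.73 to 8.02 CPM in arid4b∆ and 9.26 to 16.9 CPM in wild type. Of its 3 tested genes, Kdr and Runx1 fell in endoderm and Kdr alone fell in mesoderm. Of 8 leukocyte markers in the table, 2 were tested, and Lyz2 rose in arid4b∆ endoderm (log2 2.25 ± 0.70 SE, edgeR adjusted p = 0.038). The summed level of the 8 was 47.2, 24.3 and 10.5 CPM in arid4b∆ endoderm, against 14.6, 4.47 and 4.53 CPM in wild type endoderm, and 36.7, 18.5 and 13.9 CPM in arid4b∆ mesoderm, against 23.0, 6.20 and 7.93 CPM in wild type mesoderm. The defining marker Ptprc held 22 counts in arid4b∆ and 5 in wild type endoderm, and 16 in arid4b∆ and none in wild type mesoderm, and none of the 8 was at 0 in all libraries. Lyz2 was highest in library 1 of every group, at 32.4 CPM in arid4b∆ and 9.63 CPM in wild type endoderm, and at 22.7 CPM in arid4b∆ and 14.5 CPM in wild type mesoderm. The sum of 10 fibroblast and feeder markers was 790, 523 and 342 CPM in arid4b∆ endoderm, against 328, 247 and 343 CPM in wild type endoderm. It was 851, 476 and 392 CPM in arid4b∆ mesoderm, against 605, 543 and 1018 CPM in wild type mesoderm. Of 8 tested fibroblast markers 4 rose in endoderm, and 1 rose and 1 fell in mesoderm. Fn1 and Vim, which are not specific to fibroblasts, made up most of each sum. The other 8 markers, set apart after their values were seen, summed to 262, 134 and 76.3 CPM in arid4b∆ endoderm, against 73.3, 18.7 and 27.8 CPM in wild type endoderm. In mesoderm they summed to 209, 106 and 88.3 CPM in arid4b∆, against 99.8, 22.7 and 45.6 CPM in wild type. In endoderm all arid4b∆ libraries lay above the wild type range of this sum, and in mesoderm the genotypes overlapped. By replicate number, which the labels do not say pairs libraries, it was higher in arid4b∆ each time. It was highest in library 1 of every group. Postn averaged 35.1 ± 15.1 CPM in arid4b∆ and 6.74 ± 4.78 in wild type endoderm, and 19.1 ± 10.01 in arid4b∆ and 7.86 ± 6.97 in wild type mesoderm (SD, n = 3; edgeR adjusted p = 0.000612 and 0.0873). The leukocyte sum overlapped between genotypes in both lineages, and by replicate number it, too, was higher in arid4b∆ each time. In both lineages the leukocyte sum ran in the direction of Ddx58, Stat2 and Irf9. So did the sum of the 8 fibroblast markers, but Fn1 and Vim, left out of it, ran the other way in mesoderm. In endoderm both sums also ran in the direction of Ifih1 and Irf7. The endothelial and blood progenitor sum ran the other way in both lineages. The sum of all 10 fibroblast markers overlapped between genotypes in both lineages. Of the markers left out of the 8, Vim fell in arid4b∆ mesoderm (log2 −0.80, edgeR adjusted p = 0.0225). Fn1 was not called in mesoderm (log2 −0.58 ± 0.26 SE, edgeR adjusted p = 0.133) or in endoderm (0.60 ± 0.27, adjusted p = 0.156). The part of other cells in the result of any member was not tested.

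The labelled lineages were checked by their markers. The sum of 6 definitive endoderm markers was 6.62 to 14.0 CPM in arid4b∆ and 143 to 221 CPM in wild type endoderm, and that of 6 streak and mesoderm markers was 24.1 to 34.8 CPM in arid4b∆ and 226 to 473 CPM in wild type mesoderm. The arid4b∆ groups therefore lacked most of the marker level of the lineage they are labelled with. Between wild type lineages, the endoderm sum was 12.5 to 17.6 CPM in mesoderm, well below that in endoderm. The streak and mesoderm sum was 239 to 262 CPM in wild type endoderm, within the mesoderm range, so it did not tell the lineages apart. Of its markers, T and Mesp1 were called lower and Eomes higher in wild type endoderm than in wild type mesoderm. The genotype comparisons of Ddx58, Stat2, Irf9, Irf7 and Ifih1 set cells of different marker states against each other, and the part of that in the results was not tested. The sum of 6 pluripotency markers was 335 to 365 CPM in arid4b∆ and 331 to 387 CPM in wild type endoderm, and 345 to 381 CPM in arid4b∆ and 300.2 to 358 CPM in wild type mesoderm. Most of each sum was Pou5f1, which averaged 224 to 256 CPM in the groups and was not called between genotypes. Single markers moved in opposite directions. Nanog fell in arid4b∆ endoderm and mesoderm (log2 −1.19 and −0.53), and Sox2 rose in both (0.92 and 1.48). Zfp42 rose in endoderm (1.96), and Esrrb and Klf4 were not called.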

How the data were processed

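RNA of 12 libraries was depleted of ribosomal RNA and sequenced with a directional kit, per the labels' protocols. The authors deposited whole-number read counts per gene, 1 column a library; STAR, DESeq2 and mm10 are named in the submitters' processing notes without role or version, and the counting program is not given in the sources used here. For 26 genes a calendar date stood in place of a count in wild type endoderm library 1, and these genes, none a member, were left out. Rn45s entered neither library sizes nor tests. Mir6236 and Lars2, which took 49.7% to 69.5% of the remaining counts, were kept.

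The analysis used edgeR 4.0.16 under R 4.3.3: filterByExpr with a minimum count of 10, TMM scaling, 1 fit of 4 group means over 12 libraries without covariates, and quasi-likelihood tests adjusted over all 11635 genes. The SE was obtained from the F statistic, as the size of the log2 fold change over the root of F. DESeq2 1.42.0 and limma-voom (limma 3.58.1) were alternatives. Counting intervals are exact 95% binomial intervals of a ratio of counts scaled by library size. No pair of libraries held identical counts.

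The members, the pathway and marker lists and the rule for named genes were chosen with earlier results of these data known. The rule names all 8 members, 10 pathway genes whatever their result, the called list members with the smallest adjusted p (up to 4 a list and lineage), and the 3 genes most like each member with a mean of at least 5 CPM (predicted gene models left out; prior count 2). Some genes that the lists and the rule include are not reported here, and the counts, medians and plot of their lists leave them out.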

Additional observations from a re-analysis of the deposited data

Results flagged for a closer look

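The genotype effect on Ddx58 differed between the lineages by a test of the difference itself. The effect in endoderm minus that in mesoderm was 2.05 ± 0.36 on the log2 scale (SE, edgeR adjusted p = 0.00265), and all 18 alternatives called it, with values from 1.61 to 2.24. The arid4b∆ means were 26.4 CPM in endoderm and 26.7 CPM in mesoderm, and the wild type means were 2.00 CPM in endoderm and 7.86 CPM in mesoderm.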

How the results depend on the processing

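Alternatives were DESeq2 size factors, DESeq2, limma-voom, no filter, removal of Mir6236 and Lars2, fits of only the groups compared, a replicate block, and leaving out each library. Of 655 member values, 637 kept their side of the threshold, 11 lost and 7 gained the call, and none that was called changed sign; of 964 values of other named genes, 68 lost the call. Leaving out 1 library, 4 to 5 members rose in endoderm; 3 to 4 rose and 0 to 1 fell in mesoderm; 1 to 3 were called in the interaction; and 3 fell between wild type lineages. Over all genes, calls then ranged from 835 (without wild type endoderm library 2) to 1704 in endoderm (1478 as reported), 1480 (without wild type mesoderm library 3) to 2461 in mesoderm (2224), 104 (without arid4b∆ mesoderm library 2; 105 without wild type endoderm library 2) to 354 (without wild type mesoderm library 1) for the interaction (163), 740 (without wild type mesoderm library 3; 753 without wild type endoderm library 2) to 1391 between wild type lineages (1145), and 59 (without arid4b∆ mesoderm library 3; 120 without library 2, and 83 and 133 without arid4b∆ endoderm library 2 and 3) to 317 between arid4b∆ lineages (215). Without a filter the interaction called 3 members and 377 genes, and 483 genes differed between arid4b∆ lineages. With the replicate block these were 3 members, 346 genes and 434 genes, the added members being Ifih1 (adjusted p = 0.0116) and Irf1 (0.011). The labels do not say that equal replicate numbers pair libraries. Within a lineage or a genotype, deviations of equal numbers correlated between 0.0132 and 0.193, positive in all 6 pairs of each but not over 0.1 in every pair. For equal numbers that share neither, the correlation lay between −0.0559 and 0.0949. The closest library had the same number for 7 of 12 libraries within a lineage and 12 of 12 within a genotype, a hint from the data, not the design. Ifih1 fell below the filter in fits of only the endoderm groups or the wild type groups, and Irf7 in that of the wild type groups. For Ifi204 and Isg15 in endoderm limma-voom gave log2 4.02 and 4.97, against 6.13 and 7.10. The causes were not tested.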
